A study of Homo sapiens with 16 samples.

Results

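The hexosamine pathway builds UDP-GlcNAc, the sugar donor of N-glycan synthesis and of O-GlcNAc, a single sugar that is placed on nuclear and cytoplasmic proteins. The 9 genes examined were the enzymes of that pathway and of O-GlcNAc cycling, taken by symbol from the 58051 genes of the count table: GFPT1, GFPT2, GNPNAT1, PGM3, UAP1, UAP1L1, OGT, OGA and NAGK. All 9 were found under 1 Ensembl identifier each and all 9 passed the filter on low counts in both comparisons, so none was lost to it. RNA-seq was performed on LNCaP, an androgen-responsive human prostate cancer cell line, in 4 groups of 4 libraries. In the knockdown experiment the cells carried either Allstar control siRNA (siCtrl) or XBP1-specific siRNA (siXBP1) for 2 days. In the inhibitor experiment they received DMSO (Vehicle) or 10 μM MKC8866, an inhibitor of the IRE1α RNase, for 24 h. All 16 libraries, controls included, came from cells at passage 20 that, after these 2 days or 24 h, were exposed to 30 nM thapsigargin for 3 h. No group was therefore free of endoplasmic reticulum stress. The siRNA controls were transfected and the Vehicle controls were not. The libraries represent a single cell line. The study calls the 4 samples of a group independent, without saying whether they were separate cultures, so p-values measure the spread between these samples, which may in part be technical.

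In the pathway, GFPT1 and its isoenzyme GFPT2 pass nitrogen from glutamine to fructose phosphate, which is the committed step. GNPNAT1 acetylates the glucosamine phosphate that results, PGM3 moves the phosphate on the sugar, and UAP1 joins it to uridine to give UDP-GlcNAc. UAP1L1 is a relative of UAP1. OGT uses UDP-GlcNAc to place O-GlcNAc on proteins, OGA removes it, and NAGK returns free GlcNAc to the pathway. XBP1 encodes a transcription factor whose mRNA is spliced by IRE1α under endoplasmic reticulum stress. The spliced form activates secretory pathway genes, and genes of the hexosamine pathway are among its known targets in other tissues. The comparisons asked how RNA of each step changed when XBP1 was lost or IRE1α was inhibited.

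The sequences around a start site of the 3 members that fell after XBP1 knockdown are shown first, because XBP1 is known to bind elements with an ACGT core. RefSeq promoter windows (GRCh38.p14, 250 bases before and 50 after a start site) matched 8 of the 9 members, in 12 windows. UAP1L1 had none. The letters searched, on both strands, were TGACGTGG, GACGTG and CCACG, together with the elements named ERSE and ERSE-II. GACGTG lies inside TGACGTGG, and CCACG on the other strand can share bases with both. TGACGTGG, ERSE and ERSE-II had 0 matches in the members' windows, against 0.729%, 0.0769% and 0.0541% of all 35116 windows. GACGTG was found for 4 of the 8 members, GFPT1, GNPNAT1, PGM3 and UAP1, and for 9.34% of all genes with a window. It was not found for GFPT2, OGT, OGA or NAGK. GNPNAT1, which has the match and is not printed below, was called higher after knockdown, not lower. CCACG was found for 7 of the 8 members, all but OGA, and for 42.1% of all genes. A match describes letters only. The 230 bases below run 5′ to 3′ on the gene's strand, from 200 before to 30 after a start site, with GACGTG or its reverse complement in capitals. For PGM3, which has a pair of windows, the one with the match is shown, so it was chosen after the search, and the window nearer the start in the count table's annotation held no match. UAP1 has windows 1 to 3, each with a GACGTG match, and window 1, the nearest to the annotated start, is shown.

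GFPT1, chr2:69387198-69387427, minus strand: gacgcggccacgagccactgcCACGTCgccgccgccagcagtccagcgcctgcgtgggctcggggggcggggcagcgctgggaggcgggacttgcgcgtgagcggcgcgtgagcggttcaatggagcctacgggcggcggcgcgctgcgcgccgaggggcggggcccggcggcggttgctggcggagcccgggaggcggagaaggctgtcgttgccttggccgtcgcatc

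PGM3, chr6:83193236-83193465, minus strand: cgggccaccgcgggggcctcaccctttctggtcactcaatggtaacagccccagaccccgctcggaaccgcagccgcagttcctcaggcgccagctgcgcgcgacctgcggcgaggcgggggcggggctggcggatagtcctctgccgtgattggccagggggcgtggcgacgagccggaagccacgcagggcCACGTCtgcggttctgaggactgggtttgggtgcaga

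UAP1, chr1:162561331-162561560, plus strand: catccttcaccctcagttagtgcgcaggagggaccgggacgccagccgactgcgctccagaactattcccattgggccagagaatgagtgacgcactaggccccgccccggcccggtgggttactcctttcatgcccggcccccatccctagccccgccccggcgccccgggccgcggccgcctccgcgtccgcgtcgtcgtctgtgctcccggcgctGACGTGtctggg

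Counting the start site as position 1, the capitals began at position -179 in GFPT1, at -7 in PGM3 and at 19 in UAP1. Counted from the start site of UAP1 window 2, the same UAP1 letters began at -173. UAP1 window 3 held another match, at 2. In GFPT1 and PGM3 the element read from the opposite strand.

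Between 28713607 and 34509488 fragments were counted per library. The values below are counts relative to the library total after TMM scaling (CPM), and changes are log2 fold changes of edgeR's quasi-likelihood test with p adjusted over all genes tested. XBP1, the targeted gene, was read at 385, 421, 366 and 359 CPM in the siCtrl libraries and at 51.2, 54.2, 54.1 and 53.2 CPM in the siXBP1 libraries, a change of -2.85 ± 0.05 (SE). In the Vehicle libraries it was read at 488, 539, 482 and 503 CPM and with MKC8866 at 583, 619, 575 and 536 CPM, a rise of 0.20 ± 0.04 (adjusted p = 0.00493). These counts take in both the spliced and the unspliced form of XBP1 RNA. Of 7 LNCaP markers all were present, with FOLH1 at 1029 CPM or more in every library, while PTPRC, PECAM1 and KRT5, markers of leukocytes, endothelium and basal epithelium, stayed at or below 0.104 CPM. COL1A1, a stromal collagen, was read at 24.7 to 36.5 CPM. In bulk RNA, fewer cells with a transcript and less transcript per cell cannot be told apart.

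After XBP1 knockdown, RNA of the committed enzyme GFPT1, of PGM3 and of UAP1 fell, with changes of -39.9%, -51.9% and -48.2%, while GNPNAT1, which acts between GFPT1 and PGM3, was slightly higher. With MKC8866, GFPT1 and PGM3 fell as well, whereas UAP1 changed by -7.69% and was not called in the main fit, though it was with same-numbered replicates as blocks. OGT was called in opposite directions in the 2 comparisons, though both calls were lost in some of the alternative fits described below. OGA did not pass the test in either comparison. The counts that follow include OGT. In counts, 3 of 9 members were called lower and 3 higher after knockdown, where 18.2% of the 21021 genes tested were called lower and 16.5% higher. With MKC8866, 3 of 9 were called lower and 0 higher, where 3.11% of 21045 genes were called lower and 1.36% higher. The median change of the members was 0.06 after knockdown and -0.09 with MKC8866, beside 0.005 and 0.003 over all genes tested.

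**Figure D1:**
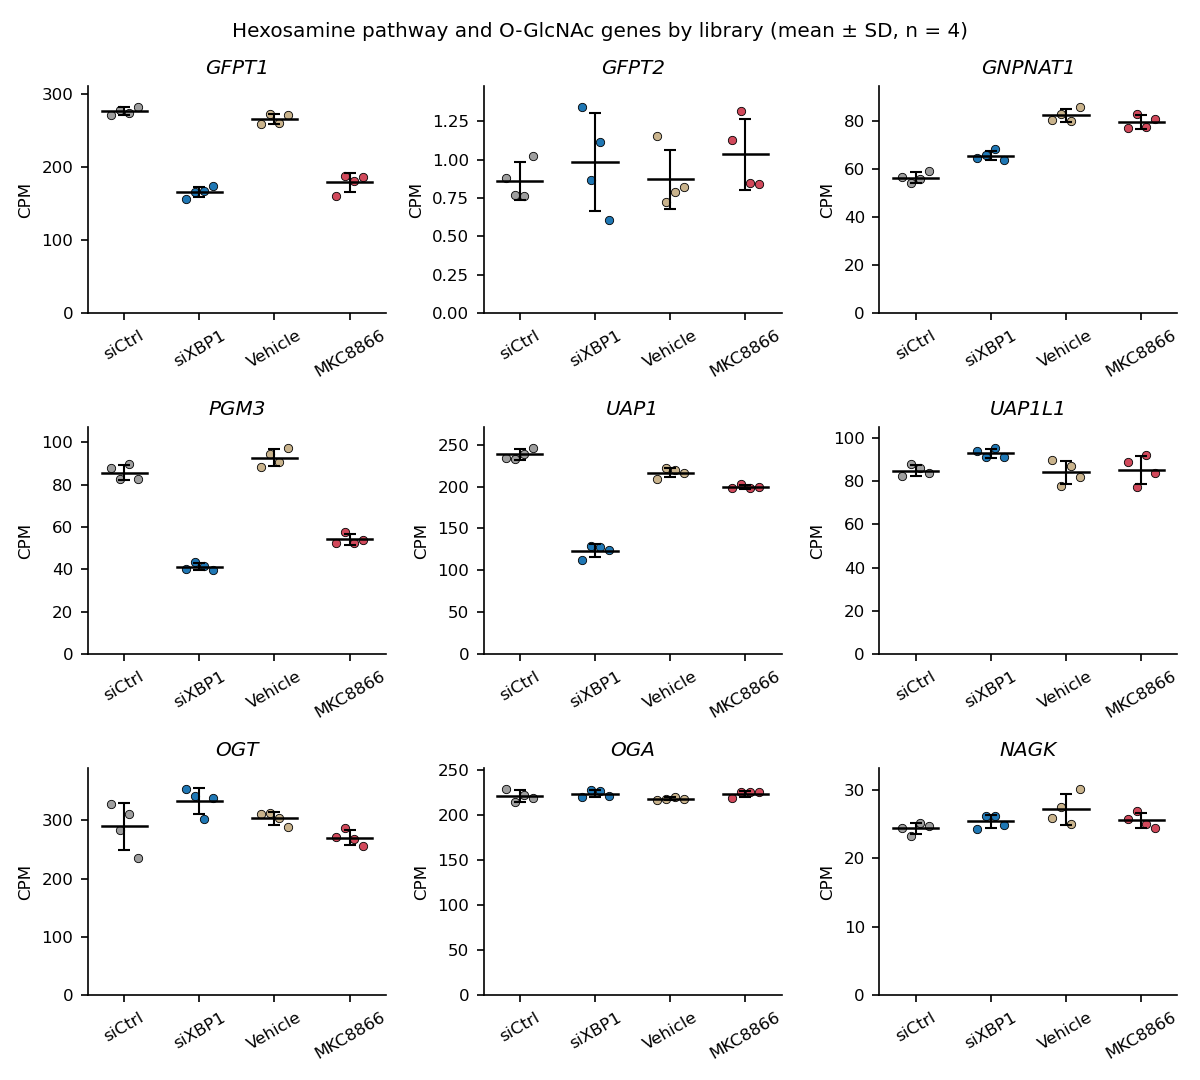
CPM of each of the 9 genes in every library (points) with the mean and SD of each group of 4 (bars), on a linear axis from 0. GFPT1 and PGM3 are lower in both treated groups than in every control library, UAP1 is near 123 CPM in siXBP1 alone, and GFPT2 reaches at most 1.35 CPM.

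GFPT1 (ENSG00000198380, chr2:69319769-69387254, minus strand) was counted at 271, 278, 274 and 283 CPM in siCtrl and at 157, 166, 167 and 174 CPM in siXBP1. In the inhibitor experiment it was counted at 259, 273, 261 and 271 CPM with Vehicle and at 161, 188, 181 and 187 CPM with MKC8866. In both experiments every treated library lay below every control library. GFPT1 fell by 39.9% after knockdown (log2 fold change -0.73 ± 0.04 SE, adjusted p = 1.83e-12). With MKC8866 it fell by 32.5% (-0.57 ± 0.05, adjusted p = 4.15e-09). The responses differed by -0.17 (95% interval -0.29 to -0.04), which narrowly missed the threshold in the interaction fit of all 16 libraries (adjusted p = 0.0505) and passed it with DESeq2 (adjusted p = 0.0422). By p, GFPT1 ranked 169 among the 10353 genes with a negative change after knockdown and 44 among the 10334 with a negative change under MKC8866.

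GFPT2 (ENSG00000131459, chr5:180300690-180353387, minus strand) catalyses the same step and was close to absent. It had 20 to 40 fragments per library and a mean of 0.86 ± 0.12 CPM in siCtrl (SD, n = 4). Its means were 0.98 ± 0.32 CPM in siXBP1, 0.87 ± 0.19 CPM with Vehicle and 1.03 ± 0.23 CPM with MKC8866, and the groups overlapped. The change after knockdown was 0.18 with a 95% interval of -0.34 to 0.69 (adjusted p = 0.642), and with MKC8866 it was 0.25 with an interval of -0.22 to 0.72 (adjusted p = 0.693). Changes of that size were not detectable at this depth. Within a library, the log2 ratio of GFPT1 to GFPT2 counts was 8.34 ± 0.19 in siCtrl and 7.46 ± 0.55 in siXBP1 (SD, n = 4). These counts were not divided by exon length.

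GNPNAT1 (ENSG00000100522, chr14:52775194-52791668, minus strand) did not follow its neighbours in the pathway. It was counted at 56.6, 54.1, 55.6 and 59.1 CPM in siCtrl and at 64.5, 65.5, 68.2 and 63.8 CPM in siXBP1, without overlap. That is a rise of 16.2% (0.22 ± 0.05, adjusted p = 6.12e-04). With Vehicle it was counted at 80.1, 83.0, 79.7 and 85.8 CPM and with MKC8866 at 76.9, 82.8, 77.4 and 80.9 CPM, and these groups overlapped. The change with MKC8866 was -0.05, with a 95% interval of -0.14 to 0.05 (adjusted p = 0.706). The responses differed by 0.26 ± 0.06 (adjusted p = 0.00148). All siCtrl and siXBP1 libraries lay below all libraries of the inhibitor experiment, a gap between the experiments that is larger than the change within either and for which handling and experiment cannot be told apart. The annotation places another gene (ENSG00000259049) over 1426 of the 4009 exonic bases of GNPNAT1, and fragments falling on both were not counted, so its level is an underestimate.

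PGM3 (ENSG00000013375, chr6:83161150-83193936, minus strand) had the largest change of the members in both experiments. It was counted at 87.6, 82.5, 89.9 and 82.5 CPM in siCtrl and at 40.2, 43.4, 41.4 and 39.9 CPM in siXBP1. With Vehicle it was counted at 88.4, 94.3, 90.8 and 97.4 CPM and with MKC8866 at 52.4, 57.6, 52.6 and 53.9 CPM. The groups were fully separated in both experiments. PGM3 fell by 51.9% after knockdown (-1.05 ± 0.05, adjusted p = 6.40e-14) and by 41.6% with MKC8866 (-0.77 ± 0.05, adjusted p = 2.38e-11). It ranked 93 and 26 by p among the genes with a negative change in the respective comparisons. The fall after knockdown was the larger, by a log2 difference of -0.28 ± 0.07 (adjusted p = 0.00205).

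The PGM3 locus holds other genes on the opposite strand, and the counting did not use strand. RWDD2A begins 557 bases from the start of PGM3, inside the stretch of PGM3 sequence printed above, and shares no exonic base with it. Its mean was 59.9 ± 4.40 CPM in siCtrl and 40.1 ± 1.84 CPM in siXBP1 (SD, n = 4), a change of -0.58 ± 0.06 (adjusted p = 1.94e-08). With MKC8866 the change was -0.53 ± 0.05 (adjusted p = 1.75e-07). DOP1A shares 1087 of the 7335 exonic bases of PGM3, where fragments were assigned to neither gene. DOP1A rose by 0.28 ± 0.06 on the log2 scale after knockdown (adjusted p = 3.15e-04), and its change with MKC8866 was 0.005 ± 0.06 (adjusted p = 0.984).

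UAP1 (ENSG00000117143, chr1:162561506-162599842, plus strand) separated the treatments most. It was counted at 235, 233, 239 and 246 CPM in siCtrl and at 112, 129, 128 and 124 CPM in siXBP1. With Vehicle it was counted at 209, 222, 219 and 216 CPM and with MKC8866 at 199, 203, 198 and 200 CPM. Treated libraries lay below control libraries in both experiments, by a wide gap after knockdown and by a narrow one with the inhibitor. After knockdown UAP1 fell by 48.2% (-0.95 ± 0.04, adjusted p = 1.61e-13). With MKC8866 the difference was -7.69% (-0.12, 95% interval -0.19 to -0.04), which did not pass the threshold in the main edgeR fit (adjusted p = 0.0855). It passed with DESeq2 (adjusted p = 0.0233) and without MKC8866 replicate 2 (adjusted p = 0.0487). With same-numbered replicates as blocks in edgeR it passed as well (adjusted p = 5.99e-04). The responses differed by -0.83 ± 0.06 (adjusted p = 1.97e-12). In that interaction fit, 12.7% of 20357 genes were called more negative after knockdown and 10.6% more positive. Of the members, PGM3 and UAP1 were called more negative, and GNPNAT1 and OGT more positive.

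UAP1 is known as an androgen-responsive gene in prostate cancer cells, and 4 of the 7 LNCaP markers were also called lower after knockdown, where 18.2% of all genes tested were. TMPRSS2, itself androgen-responsive, changed by -0.89 ± 0.04 after knockdown (adjusted p = 4.60e-14) and by 0.07 ± 0.04 with MKC8866 (adjusted p = 0.427). KLK3, which encodes prostate-specific antigen, changed by -0.86 ± 0.04 after knockdown (adjusted p = 1.09e-13) and rose by 0.46 ± 0.04 with MKC8866 (adjusted p = 2.75e-08). KLK2 changed by -0.78 ± 0.04 after knockdown (adjusted p = 3.42e-12) and by 0.02 ± 0.05 with MKC8866 (adjusted p = 0.930). KRT18, a luminal keratin, was called lower with both treatments, by -0.35 ± 0.05 after knockdown (adjusted p = 2.04e-06) and by -0.22 ± 0.04 with MKC8866 (adjusted p = 0.00150). FOLH1 and KRT8 did not pass the test after knockdown, with changes of -0.01 and -0.04. The part of androgen-responsive expression in the UAP1 result was not tested.

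UAP1L1 (ENSG00000197355, chr9:137077501-137084539, plus strand) did not fall with UAP1. It was counted at 82.2, 87.7, 86.0 and 83.5 CPM in siCtrl and at 93.7, 91.1, 95.4 and 91.1 CPM in siXBP1, where every library was higher. The rise was 9.44% (0.13 ± 0.04, adjusted p = 0.0171). With Vehicle it ranged from 77.8 to 89.7 CPM and with MKC8866 from 77.1 to 91.8 CPM, with a change of 0.02 (95% interval -0.09 to 0.14). The log2 ratio of UAP1 to UAP1L1 counts within a library was 1.49 ± 0.06 in siCtrl and 0.41 ± 0.11 in siXBP1 (SD, n = 4), a difference of -1.08 with no overlap. In the inhibitor experiment the ratio was 1.37 ± 0.12 with Vehicle and 1.23 ± 0.13 with MKC8866.

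**Figure D2:**
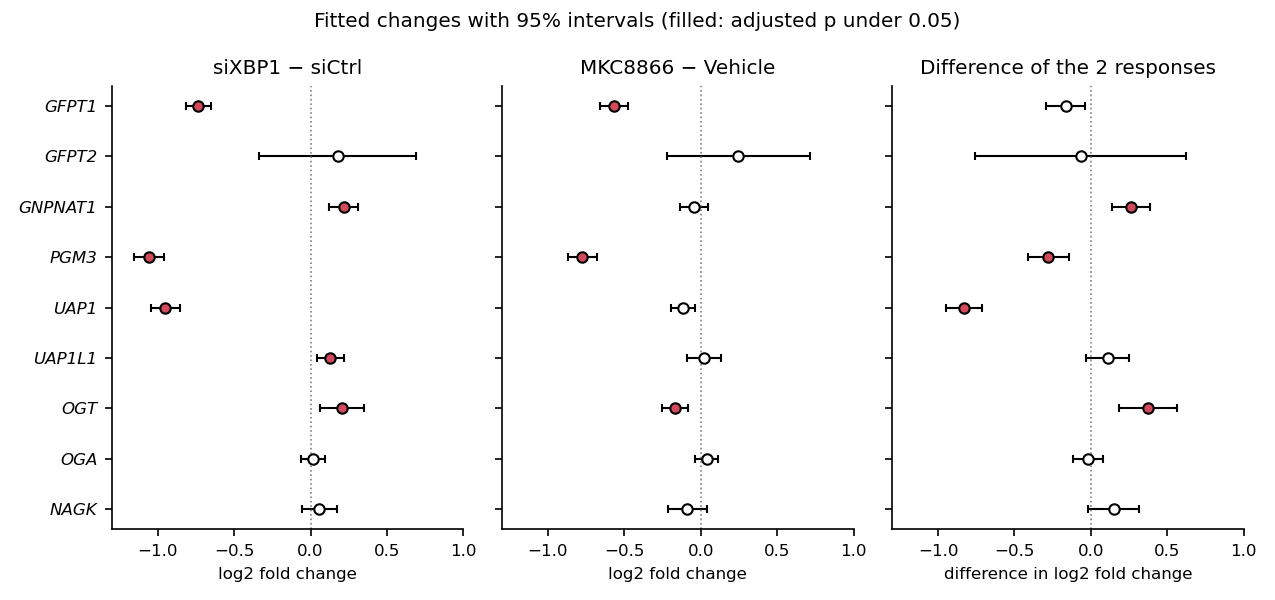
Fitted log2 fold change of each gene (points) with its 95% interval (bars) after XBP1 knockdown, with MKC8866, and the difference between both responses. Filled points passed an adjusted p of 0.05. The points for GFPT1 and PGM3 lie left of 0 in both comparisons, and the widest gap between the responses is that of UAP1, at -0.83.

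OGT (ENSG00000147162, chrX:71533083-71575897, plus strand), which consumes UDP-GlcNAc, was counted at 328, 283, 311 and 235 CPM in siCtrl and at 355, 341, 302 and 338 CPM in siXBP1. The groups overlapped, and siCtrl replicate 4 was well below the others. The rise was 15.3% (0.21 ± 0.07, adjusted p = 0.0262). It was not called with DESeq2 (adjusted p = 0.131), nor without siCtrl replicate 4, where the change was 0.13 (adjusted p = 0.0790). With Vehicle OGT was counted at 311, 312, 304 and 288 CPM and with MKC8866 at 271, 287, 268 and 255 CPM. All MKC8866 libraries lay below all Vehicle libraries, by a narrow margin at the nearest. OGT fell by 10.97% with MKC8866 (-0.17 ± 0.04, adjusted p = 0.0159), a call that was lost when all 16 libraries shared 1 estimate of the spread (adjusted p = 0.182). The difference between the responses, 0.38 ± 0.09, passed the test (adjusted p = 0.00291).

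OGA (ENSG00000198408, chr10:101784443-101818465, minus strand), which removes O-GlcNAc, was close to constant. Its means were 221 ± 6.49 CPM in siCtrl, 224 ± 3.94 CPM in siXBP1, 218 ± 1.34 CPM with Vehicle and 224 ± 3.21 CPM with MKC8866 (SD, n = 4). The change after knockdown was 0.02 with a 95% interval of -0.06 to 0.09 (adjusted p = 0.801). With MKC8866 it was 0.04 with an interval of -0.04 to 0.11 (adjusted p = 0.695). NAGK (ENSG00000124357, chr2:71064344-71079805, plus strand), the salvage kinase, was counted at 23.3 to 30.2 CPM over all libraries. Its changes were 0.06 after knockdown (95% interval -0.06 to 0.17, adjusted p = 0.467) and -0.09 with MKC8866 (-0.22 to 0.04, adjusted p = 0.552).

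The balance of the enzymes that write and erase O-GlcNAc was compared within libraries, where scaling between libraries cancels. The counts were not divided by exon length, 9812 bases for OGT and 7247 for OGA, so the sign of the ratio does not rank the genes. The log2 ratio of OGT to OGA counts was 0.38 ± 0.19 in siCtrl and 0.58 ± 0.12 in siXBP1, and the groups overlapped. With Vehicle it was 0.48 ± 0.06 and with MKC8866 0.27 ± 0.07 (SD, n = 4), with every MKC8866 library lower. The differences were 0.20 (exact permutation test, two-sided, p = 0.114) and -0.21 (p = 0.0286). Over the 6 ratio tests made, on OGT to OGA, GFPT1 to GFPT2 and UAP1 to UAP1L1 in both experiments, 3 reached 0.0286, the smallest p that 4 against 4 libraries allow. Adjusted over the 6 tests those 3 became 0.0571, so none passed.

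**Figure D3:**
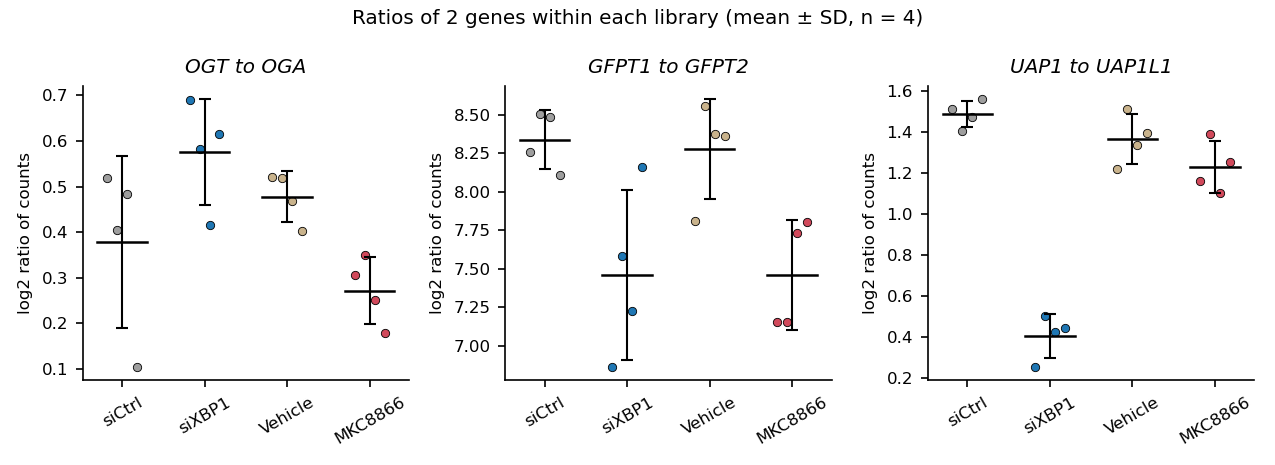
Log2 ratio of the counts of 2 genes within each library (points) with the mean and SD of each group of 4 (bars). The axes do not start at 0. The siXBP1 libraries stand apart in UAP1 to UAP1L1, at a mean of 0.41 against 1.49 in siCtrl, and the MKC8866 libraries lie lowest as a group in OGT to OGA, at 0.27.

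The ratios of counts above were not divided by exon length, so they serve to compare groups, not to rank the levels of 2 genes. In the order below, levels were divided by the annotated exon length (CPM per kb). This length counts all annotated exons rather than the isoform in use. That length also takes in bases shared with another gene, where fragments were not counted, 35.57% for GNPNAT1 and 14.82% for PGM3. The levels of both are therefore underestimates, and their places and overlaps in the order below hold for this measure only. In siCtrl, UAP1 was the highest at 69.3 ± 1.76 CPM per kb (SD, n = 4). GFPT1 at 31.2 ± 0.59, OGA at 30.5 ± 0.89 and OGT at 29.5 ± 4.15 CPM per kb followed, and these neighbours in the order overlapped. UAP1L1 at 16.1 ± 0.47, GNPNAT1 at 14.1 ± 0.53, PGM3 at 11.7 ± 0.51, NAGK at 2.74 ± 0.09 and GFPT2 at 0.18 ± 0.03 CPM per kb came next without overlap. In siXBP1, UAP1 at 35.9 ± 2.29 overlapped OGT at 34.0 ± 2.30 CPM per kb, and GFPT1 at 18.7 ± 0.81 overlapped UAP1L1 at 17.6 ± 0.40. With MKC8866, UAP1 remained above all others at 58.1 ± 0.61 CPM per kb, and GFPT1 at 20.2 ± 1.43 overlapped GNPNAT1 at 19.8 ± 0.71. PGM3 was the lowest of the expressed pathway steps from GFPT1 to UAP1 in every group, at 12.6 ± 0.54 with Vehicle, 7.38 ± 0.33 with MKC8866 and 5.62 ± 0.22 CPM per kb in siXBP1.

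**Figure D4:**
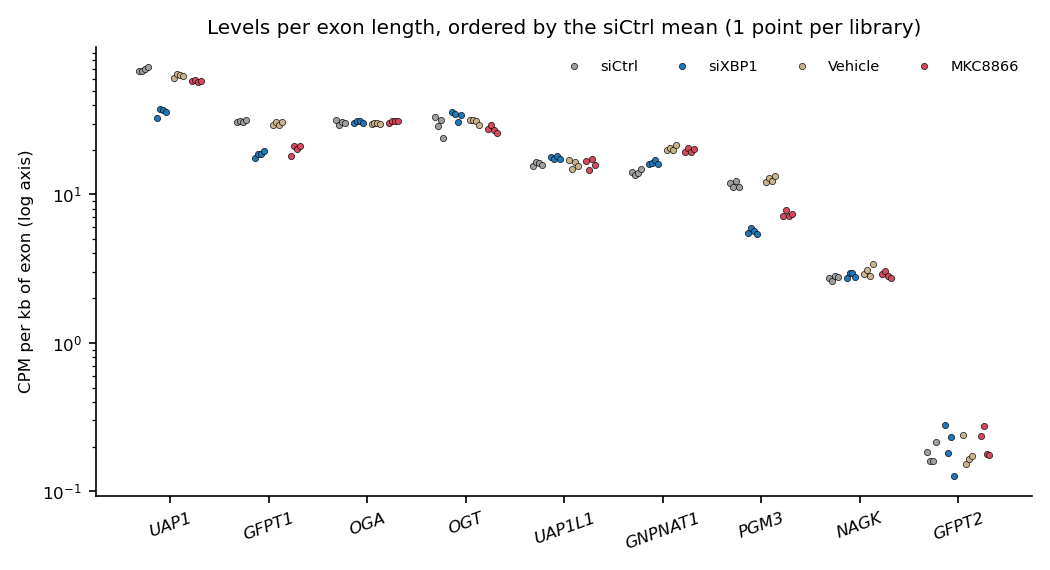
CPM per kb of exon for each gene in every library (points), on a log axis, with genes ordered by their siCtrl mean. UAP1 is the highest in siCtrl at 69.3, PGM3 is the lowest of the expressed synthesis steps, and GFPT2 lies near 0.18.

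The genes whose log2 CPM followed each member most closely over the 16 libraries were listed among 15037 genes with a mean of at least 1 CPM, leaving out the members. The libraries share 4 conditions and 2 experiments, so Pearson's r describes the pattern of the groups. GFPT1 was most like THAP5 (r = 0.992), ARF4 (0.990) and DNAJB9 (0.990), and PGM3 most like NUCB2 (0.988), FKBP11 (0.988) and COPB2 (0.987). UAP1 had other companions, PRNP (0.993), ATP6V1D (0.992) and PFKFB2 (0.991). GNPNAT1 was most like ZNF100 (0.9751), TRAPPC6B (0.971) and ATAD5 (0.959). UAP1L1 was most like ATG4D (0.950), SH3GL1 (0.928) and VPS26B (0.926), and OGT most like SLC25A29 (0.945), CLK2 (0.944) and PAQR6 (0.933). The steady members had weaker matches, INTS12 (0.767), HSPA8P7 (0.739) and SMC6 (0.736) for OGA and CMC2 (0.847), AKIP1 (0.827) and SH3GLB1 (0.807) for NAGK. GFPT2 was below the minimum.

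Around the pathway, 46 genes in 6 lists were examined, those that feed it, drain it or use its product, of which 45 were tested and HAS2 was not. After knockdown 16 fell and 11 rose past the threshold, and with MKC8866 5 fell and 2 rose. Over all genes tested the shares were 18.2% lower and 16.5% higher after knockdown, and 3.11% lower and 1.36% higher with MKC8866, and the counts of single lists below stand beside the same shares. Their median change was -0.08 after knockdown and -0.01 with MKC8866. With both treatments NANS, DPAGT1, MGAT1 and MGAT2 were called lower and MGAT4B higher.

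Of 7 genes of UTP supply, 5 were called lower and 1 higher after knockdown, beside 18.2% and 16.5% of all genes, and none was called with MKC8866. CMPK1, the kinase that makes UDP from UMP, had the largest change, from 211 ± 9.01 CPM in siCtrl to 113 ± 6.02 CPM in siXBP1 (SD, n = 4), or -0.90 ± 0.05 on the log2 scale (adjusted p = 4.70e-13). With MKC8866 its change was -0.05 ± 0.05 (adjusted p = 0.678), and the responses differed by -0.85 ± 0.07 (adjusted p = 3.94e-11). Of 7 genes of fructose phosphate and glutamine supply, 1 was called lower and 2 higher after knockdown and none with MKC8866. SLC1A5, a glutamine transporter, rose by 0.40 ± 0.04 on the log2 scale after knockdown (adjusted p = 1.18e-07), with 23.8% of its exonic bases shared with other genes.

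Of 5 genes of conversion to UDP-GalNAc and sialic acid, 1 was called lower after knockdown and 2 lower with MKC8866. NANS, the sialic acid synthase, changed from 89.4 ± 3.60 CPM in siCtrl to 59.2 ± 1.98 CPM in siXBP1 (-0.60 ± 0.04, adjusted p = 4.36e-10). With MKC8866 it changed from 87.7 ± 3.12 to 73.1 ± 2.86 CPM (-0.26 ± 0.04, adjusted p = 3.95e-04). GNE, which starts sialic acid synthesis from UDP-GlcNAc, was called lower with MKC8866 (-1.37 ± 0.39, adjusted p = 0.0433) on 2 to 19 fragments per library. That call was lost when any one of 6 of the 8 libraries was left out.

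Of 15 transferases tested that use UDP-GlcNAc, 7 were called lower and 5 higher after knockdown, and 3 lower and 2 higher with MKC8866. DPAGT1, which starts the N-glycan precursor, changed by -0.45 ± 0.04 after knockdown (adjusted p = 3.86e-08) and by -0.35 ± 0.05 with MKC8866 (adjusted p = 2.48e-05). Of its exonic bases, 21.3% are shared with another gene, where fragments were not counted. MGAT1, which opens the branching of N-glycans in the Golgi, changed by -0.43 ± 0.04 (adjusted p = 3.61e-08) and -0.28 ± 0.04 (adjusted p = 5.94e-05). MGAT4B, a branching enzyme, rose by 0.23 ± 0.05 after knockdown (adjusted p = 3.19e-04) and by 0.46 ± 0.05 with MKC8866 (adjusted p = 3.04e-07). MGAT2 changed by -0.57 ± 0.21 (adjusted p = 0.0343) and -0.79 ± 0.20 (adjusted p = 0.0233), but 91.9% of its exonic bases are shared with another annotated gene, which left 17 to 55 fragments per library. The MGAT2 call after knockdown was lost with DESeq2 (adjusted p = 0.0614). HAS3, a hyaluronan synthase, rose by 0.59 ± 0.18 after knockdown (adjusted p = 0.0127) from a mean of 1.64 ± 0.47 CPM, and was not called without siXBP1 replicate 1 (adjusted p = 0.0526).

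Of 5 genes of reverse and degradation steps, 2 were called lower and 1 higher after knockdown and none with MKC8866. NPL, a sialic acid lyase, had the largest called change, at -0.34 ± 0.10 after knockdown (adjusted p = 0.0150; 0.0537 without siCtrl replicate 4). Of 6 genes that release free GlcNAc, none was called lower and 2 were called higher after knockdown, and none was called with MKC8866. ENGASE, which cuts N-glycans from proteins in the cytosol, rose by 0.22 ± 0.07 after knockdown (adjusted p = 0.0121).

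**Figure D5:**
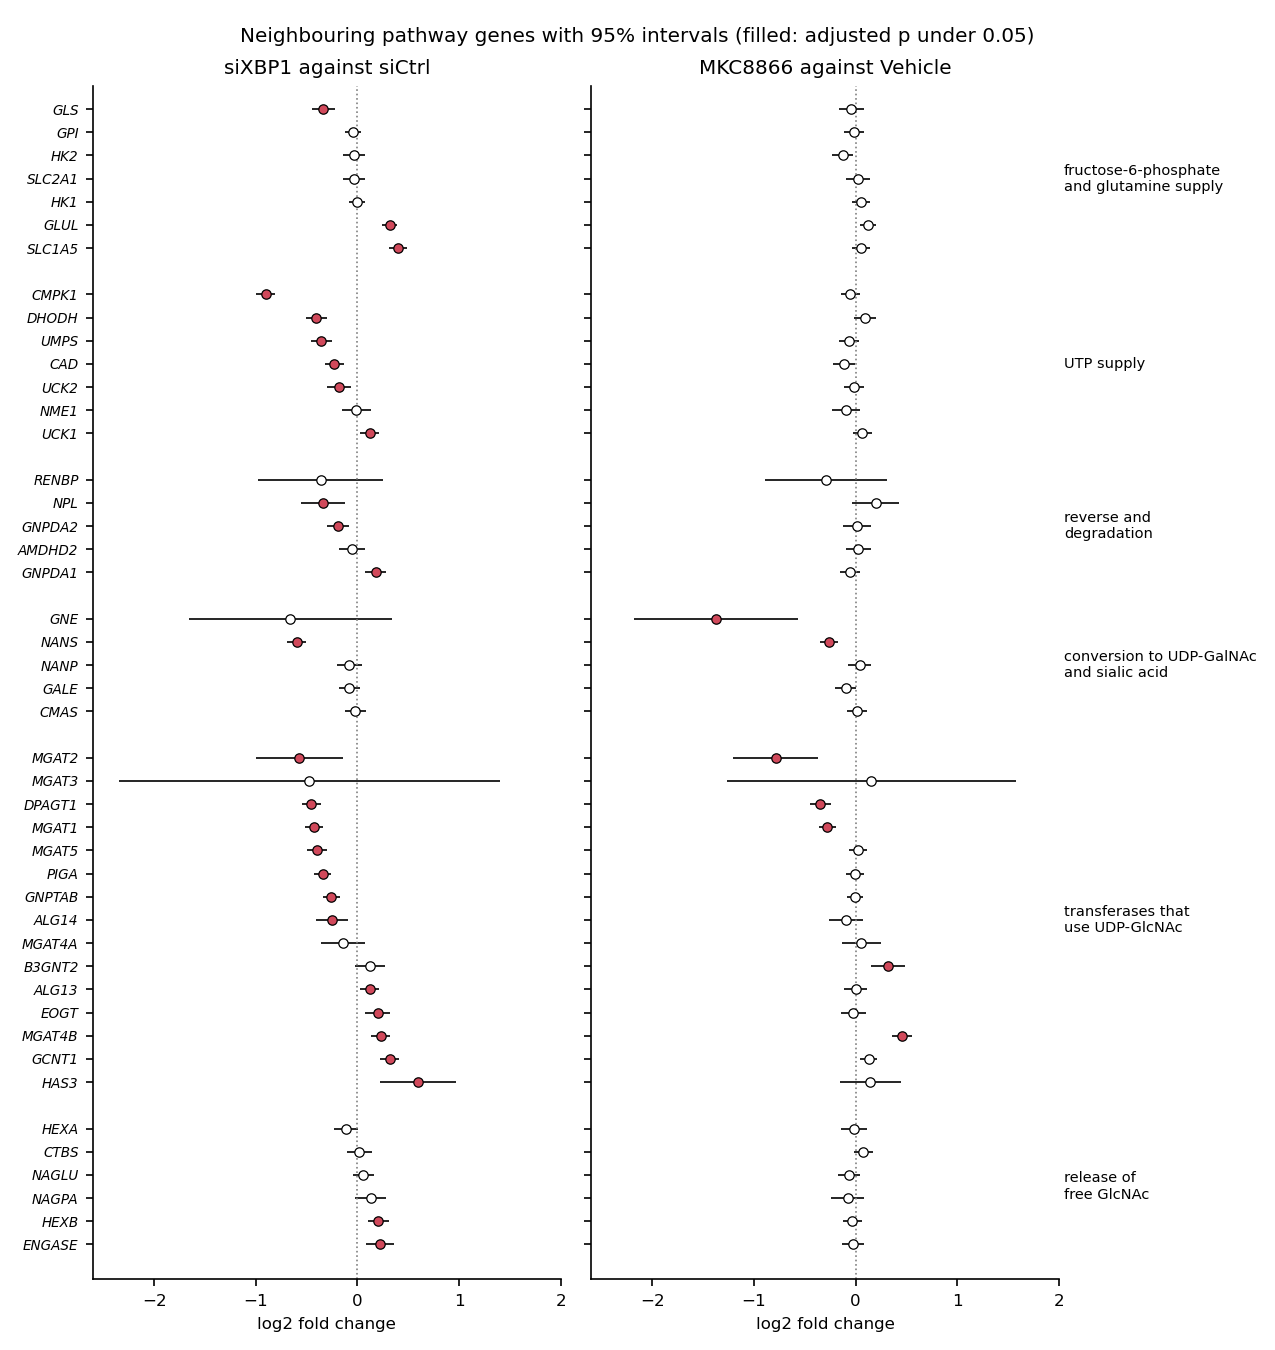
Fitted log2 fold change of the 45 tested list genes (points) with 95% intervals (bars) after XBP1 knockdown and with MKC8866, by list. Filled points passed an adjusted p of 0.05. After knockdown 27 points are filled and with MKC8866 7, and CMPK1 is the lowest filled point after knockdown, at -0.90.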

How the data were processed

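Total RNA of 16 LNCaP samples was sequenced by the authors from stranded paired-end libraries. Per the labels, the authors aligned reads with STAR 2.5.2a to hg38 and summarised them with featureCounts 1.5.0 on Ensembl annotation. The deposited values are raw counts of fragments per gene. Per the file headers, counting was without strand and without fragments that overlap 2 genes, so antisense signal cannot be told apart. Of 58051 genes, 56948 matched a symbol. Symbols and lists were chosen with earlier results of these data known.

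A gene was tested if 1 or more libraries in each group held over 5 counts of it. Tests were made with edgeR 4.0.16 (R 4.3.3; TMM, quasi-likelihood, two-sided, Benjamini-Hochberg, threshold 0.05), each treatment against its own control. The difference between responses was an interaction over 16 libraries and 20357 genes. The study's methods use DESeq2, run here as an alternative (1.42.0). Library totals ran from 28713607 to 34509488, and replicates varied by 5.40% (knockdown) and 4.97% (inhibitor) as edgeR's biological coefficient of variation, which sets the precision of well-counted genes. Replicates of a group correlated at 0.992 to 0.994 (log2 CPM), with no identical pair. Ratios were tested by exact permutation (scipy 1.17.1). Alternatives were RLE scaling, no filter, at least 10 counts in every library, a replicate block, 1 fit of all libraries, 0.5 added to counts in ratios, and leaving out each library. The fits were tested on simulated data.

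Named were the members, XBP1, genes overlapping a member or starting within 1000 bases on the other strand (those with at most 161 counts over all libraries carry no values), the 3 genes most like each member, and, of the lists, genes called in both comparisons and the called gene with the largest change per list and comparison. Markers of LNCaP and other cells were given beside them, and 1 marker is not reported here.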

Additional observations from a re-analysis of the deposited data

Results flagged for a closer look

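Of 36 groups of 4 libraries examined, 1 held a library far from the others, where chance flags about 1 group in 20: OGA in one MKC8866 library was at 219 CPM, below the other 3, which lay at 225 and 226 CPM. The other results listed are members whose responses to knockdown and to MKC8866 differed in the interaction test of edgeR over all 16 libraries, given as the log2 response to knockdown minus that to MKC8866: 0.26 for GNPNAT1, -0.28 for PGM3, -0.83 for UAP1 and 0.38 for OGT. Knockdown and inhibitor were applied in separate experiments with controls of their own, so treatment and experiment cannot be told apart.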

How the results depend on the processing

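The calls of GFPT1, GNPNAT1, PGM3, UAP1 and UAP1L1 after knockdown, of GFPT1 and PGM3 with MKC8866, and the interaction calls of GNPNAT1, PGM3, UAP1 and OGT kept their direction and stayed past the threshold under every alternative run. Over the alternatives, 3 members were called lower and 2 or 3 higher after knockdown. With MKC8866, 2 to 4 members were called lower and 0 higher. The labels do not tie same-numbered replicates together, and they did not all deviate together at a correlation over 0.1 (correlations of 0.009 to 0.064 in the knockdown experiment and 0.085 to 0.328 in the inhibitor experiment, where MKC8866 replicate 3 correlated best with Vehicle replicate 1 and the other 3 with their own number), so the fits without a block were kept as the main ones. With the replicate block, the all-gene calls with MKC8866 rose to 1484 lower and 1262 higher, the list genes called higher numbered 4, as with DESeq2 (4), UAP1 passed with MKC8866 (adjusted p = 5.99e-04) and GFPT1 in the interaction (adjusted p = 0.00883). Leaving out 1 library at a time moved the all-gene calls higher with MKC8866 between 180 (without MKC8866 replicate 1) and 484 (without MKC8866 replicate 2), the list genes called lower between 3 and 5 and those called higher between 1 and 3. It also turned the sign of uncalled changes near 0: UAP1L1 with MKC8866 ranged from -0.015 to 0.063, DOP1A with MKC8866 from -0.053 to 0.059, and the GFPT2 interaction from -0.25 to 0.11. The OGT call was lost after knockdown without siCtrl replicate 4 or siXBP1 replicates 1, 2 or 4, and with MKC8866 without Vehicle replicate 1 or MKC8866 replicates 3 or 4 (adjusted p of 0.0517 to 0.0834). The GFPT1 interaction passed without siCtrl replicate 1, siXBP1 replicate 4, Vehicle replicate 2 or MKC8866 replicate 1 (0.00573 to 0.0490). The MGAT2 call was lost in 5 of 8 such fits after knockdown and in 3 of 8 with MKC8866. None of the ratios passed under any alternative, but the replicate block and the fits without 1 library could not have let them pass. The exact test of 4 pairs cannot go below p = 0.125. With 3 against 4 libraries the two-sided exact test cannot reach 0.05 either, and the lowest adjusted p of those ratio tests was 0.0857. The causes were not tested. Depth limits GFPT2, GNE and MGAT2, whose counts are low.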
